A study of Mus musculus with 4 samples.

Results

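The Schlafen genes are a family of immune genes that lie side by side in the mouse genome, and 7 of them (Slfn1, Slfn2, Slfn3, Slfn4, Slfn5, Slfn8 and Slfn9) were described here in mouse dendritic cells lacking GOLPH2. The members were taken as the rows whose gene name equals a listed name. All 7 were found in both deposited tables, which list 15310 genes for stimulated and 15394 genes for unstimulated cells. The family was chosen on its measured ratios of knockout over wild type, since Slfn1 went opposite ways in the 2 states. All ratios between the genotypes are therefore given as a description, with no test.

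The study profiled dendritic cells grown from bone marrow (BMDCs) of C57BL/6 mice aged 8 weeks, by sequencing mRNA libraries that keep the strand. There were 4 groups with 1 library each: stimulated GOLPH2-/- (KO) cells, stimulated WT cells, unstimulated KO cells and unstimulated WT cells. Stimulation was 16 h of IFN-gamma, a cytokine of T and NK cells, followed by 4 h of LPS, the bacterial ligand of Toll-like receptor 4. The labels call the other libraries controls, taken here as cells given neither agent. GOLPH2, a Golgi membrane protein, is encoded by Golm1, whose log2 ratio of KO over WT was −2.00 in stimulated and −2.09 in unstimulated cells. How the GOLPH2-/- allele was made, and how many mice gave each culture, is not stated in the labels. With 1 library per group, a genotype difference and a difference between cultures cannot be told apart, and each ± below is a counting standard error (SE) that covers the sampling of reads only.

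Schlafen proteins share a conserved N-terminal core, and most mouse members are induced by type I interferon. By length they fall into short proteins (Slfn1 and Slfn2), proteins of intermediate length (Slfn3 and Slfn4) and long proteins that also carry a helicase-like part (Slfn5, Slfn8 and Slfn9). The family was first described in mouse thymocytes and is known for restraining lymphocyte growth. Several members in mammals act on RNA, among them rat Slfn13, which cleaves transfer RNA. In myeloid cells Schlafen transcripts are known to rise after Toll-like receptor ligands, which trigger the production of interferon-beta.

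The members lie in 1 cluster of 263.8 kb on chromosome 11 (82951349 to 83215154, GRCm38, the build named mm10 in the submitters' notes), in the order Slfn5, Slfn9, Slfn8, Slfn2, Slfn1, Slfn4 and Slfn3. Slfn9 and Slfn8 are on the minus strand and the other members on the plus strand. The start regions of the genes are shown here because they split the members by their letters. RefSeq promoter windows (GRCm38.p6, 250 bases before to 50 after the start) were found for all 7. They were searched on both strands for the core of the interferon-stimulated response element (ISRE), bound by interferon regulatory factors and written GAAANNGAAA. The windows of Slfn5, Slfn8 and Slfn9 hold this core. It is in 3.44% of the 32851 promoter windows of the table. In these stretches, printed 5′ to 3′ on the strand of the gene, capitals mark the ISRE core, which reads on the opposite strand in Slfn8 and Slfn9. Slfn8 has 2 annotated starts, and the core lies at −48 from the one and −136 from the other. Slfn5 is at chr11:82951917-82951986 (plus strand), Slfn8 at chr11:83020819-83020888 (minus strand) and Slfn9 at chr11:82991836-82991905 (minus strand).
Slfn5: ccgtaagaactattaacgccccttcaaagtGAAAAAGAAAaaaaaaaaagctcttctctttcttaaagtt
Slfn8: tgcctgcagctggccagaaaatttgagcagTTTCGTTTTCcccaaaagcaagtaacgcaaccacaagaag
Slfn9: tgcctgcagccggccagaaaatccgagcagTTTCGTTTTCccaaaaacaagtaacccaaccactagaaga

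The windows of Slfn1, Slfn2, Slfn3 and Slfn4 do not hold these ISRE letters. The longest run of letters common to all 4 is ACTTCCTGG, which holds the GGAA core of ETS-family factors on the opposite strand. It begins at −74 from the start site in Slfn1, at −55 in Slfn2, at −42 in Slfn3 and at −73 in Slfn4. It is in 0.84% of all windows when both strands are read, and the run was found by looking at these 4 genes. None of the 7 windows holds TTCNNNGAA, the palindromic GAS site of IFN-gamma signalling, which is in 8.3% of all windows. Below, capitals mark the shared run. Slfn1 is at chr11:83116716-83116784, Slfn2 at chr11:83065027-83065095, Slfn3 at chr11:83191258-83191326 and Slfn4 at chr11:83175083-83175151, all on the plus strand.
Slfn1: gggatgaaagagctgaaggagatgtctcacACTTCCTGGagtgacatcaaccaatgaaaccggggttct
Slfn2: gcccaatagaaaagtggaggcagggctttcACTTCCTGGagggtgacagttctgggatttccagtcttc
Slfn3: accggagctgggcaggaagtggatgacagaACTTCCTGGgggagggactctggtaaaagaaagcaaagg
Slfn4: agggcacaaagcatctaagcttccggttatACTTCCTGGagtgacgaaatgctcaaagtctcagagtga

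The authors' deposited tables give a log2 ratio and a p-value per gene and no level per library. The ratio and the p-value together fixed the reads of both libraries as whole numbers, as described under processing, so the reads of each member could be given. Library totals derived in the same way were 36.78 M (megareads) in stimulated KO, 37.71 M in stimulated WT, 39.56 M in unstimulated KO and 34.65 M in unstimulated WT cells. Levels are given in the usual CPM unit, the reads of a gene scaled by its library total, and ratios are log2 of KO over WT CPM. A gene was called where its ratio reached 1.5-fold in either direction and where the p in the authors' deposited table, after Benjamini-Hochberg adjustment over all listed genes, was below 0.001. Such a call compares 2 libraries. In these bulk cultures, fewer cells of a kind and less RNA per cell cannot be told apart.

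In stimulated cells all 7 Schlafen transcripts were lower in the KO library. Of the 10911 genes with at least 50 reads in both tables, 50.2% had a ratio below 0. Genes whose deposited p-value is at the upper limit of a table (capped) gave no reads and are left out of these 10911. The 95% counting interval of each member's ratio lay below 0, also for a difference as small as that of Slfn2. The share of all genes with such an interval was not computed. The deficits were graded: Slfn8, Slfn4 and Slfn9 were called lower, and Slfn1 and Slfn2 were within 1.2-fold of WT. Slfn3 and Slfn5 stood just short of 1.5-fold, and Slfn3 also missed the limit on adjusted p. The count was 3 of 7 called lower, where 0.594% of all genes were called lower, and 0 of 7 called higher, against 0.425% of all genes. The median ratio of the members was −0.56, and that of all genes of the table was 0.0052.

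**Figure D1:**
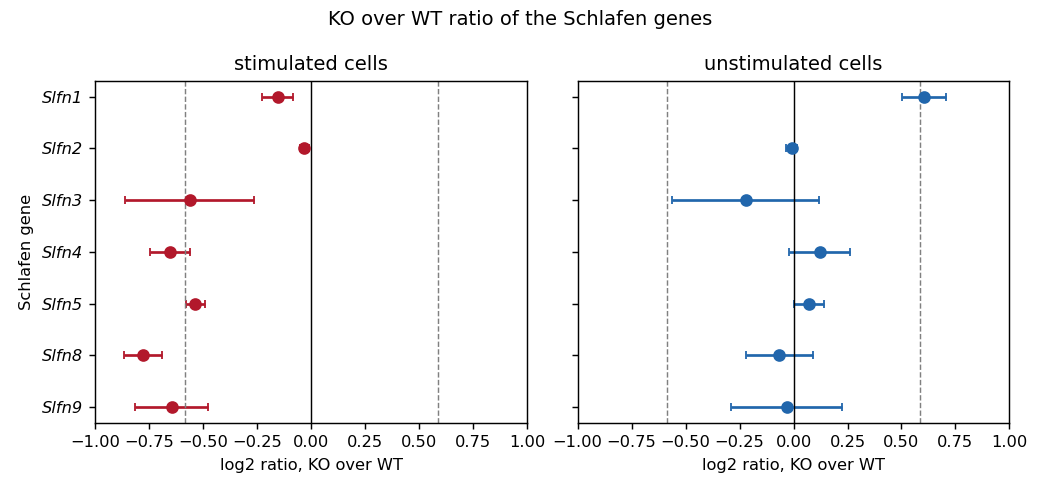
Log2 ratio of KO over WT for each Schlafen gene in stimulated cells (left) and unstimulated cells (right); points are ratios, bars are 95% counting intervals, and dashed lines mark 1.5-fold. All 7 points lie below 0 in stimulated cells, and in unstimulated cells only Slfn1 reaches the dashed line.

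Of the long members, which carry the helicase-like part, Slfn8 had the lowest ratio of the family in stimulated cells. Slfn8 had 1613 reads in stimulated KO cells, against 2840 reads in stimulated WT cells (43.9 and 75.3 CPM), a ratio of −0.78 ± 0.045 or 58.2% of the WT level. Of the 10911 genes with at least 50 reads (geometric mean of KO and WT) in both tables, 0.183% had a lower ratio than Slfn8. Capped genes are not in this share, and some of them, such as Ifit2, had lower ratios than Slfn8. Slfn9, its neighbour in the cluster, had 465 reads in stimulated KO cells, against 746 reads in stimulated WT cells, a ratio of −0.65 ± 0.085 (63.9% of WT). Slfn5, an interferon-induced gene studied mostly for its effects on cell growth, had 7620 reads in stimulated KO cells, against 11332 reads in stimulated WT cells. Its ratio of −0.54 ± 0.021 (68.9% of WT) was short of 1.5-fold, so it was not called, while its interval of −0.58 to −0.49 was the narrowest of the 3.

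Slfn3 and Slfn4, the members of intermediate length, had ratios near those of the long members. Slfn4, a gene of monocytes and macrophages known to respond to interferon and to Toll-like receptor ligands, had 1539 reads in stimulated KO cells, against 2485 reads in stimulated WT cells, a ratio of −0.66 ± 0.047 (63.5% of WT). Slfn3 had 157 reads in stimulated KO cells, against 238 reads in stimulated WT cells. With these few reads its ratio of −0.56 ± 0.15 had an interval of −0.86 to −0.27, and it was not called.

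The short members differed least between the stimulated libraries. Slfn2, which keeps mouse T cells and monocytes quiescent, was the most abundant member, with 37172 reads in stimulated KO cells, against 38970 reads in stimulated WT cells. This is a ratio of −0.03 ± 0.010, or 97.8% of WT, and 41.1% of the 10911 genes had a lower one. Slfn1, a growth-restraining gene of developing T cells, had 3043 reads in stimulated KO cells, against 3476 reads in stimulated WT cells, a ratio of −0.16 ± 0.036 (89.8% of WT). Slfn1 and Slfn2 are adjacent in the cluster, and their windows above are 2 of the 4 without the ISRE letters. Slfn3 and Slfn4, with larger deficits, are the other 2. Only exact letters within the promoter windows were searched, and their part in the ratios was not tested.

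In unstimulated cells the picture was different. Slfn1 alone was called, and it was higher in the KO library. The count was 1 of 7 called higher, where 0.409% of all genes were called higher, and 0 of 7 called lower, against 0.299% of all genes. Since the family was chosen on this gene, nothing is read from that count. The median ratio of the members was −0.0092, close to that of all genes at 0.0013.

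Slfn1 had 2110 reads in unstimulated KO cells, against 1216 reads in unstimulated WT cells (53.3 and 35.1 CPM). Its ratio was 0.60 ± 0.052, or 152% of the WT level, just past the 1.5-fold threshold, and its interval of 0.50 to 0.71 reached below it. The authors' deposited table marks Slfn1 as differentially expressed in unstimulated cells at a log2 ratio of 0.80 as deposited, which is not corrected for the larger KO library.

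The other members differed little between the unstimulated libraries. Slfn2 had 24017 reads in KO, against 21170 reads in WT cells, a ratio of −0.0092 ± 0.014. Slfn5 had 3791 reads in KO, against 3158 reads in WT cells, a ratio of 0.07 ± 0.035 whose interval started at 0.0039. Slfn4 had 921 reads in KO, against 742 reads in WT cells, a ratio of 0.12 ± 0.071 with an interval that included 0. Intervals of Slfn3, Slfn8 and Slfn9 included 0 as well. Slfn8 had 723 reads in KO, against 663 reads in WT cells (−0.07 ± 0.078). Slfn9 had 268 reads in KO, against 240 reads in WT cells (−0.03 ± 0.13). Slfn3 had 145 reads in KO, against 148 reads in WT cells (−0.22 ± 0.17), with an interval of −0.56 to 0.12.

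**Figure D2:**
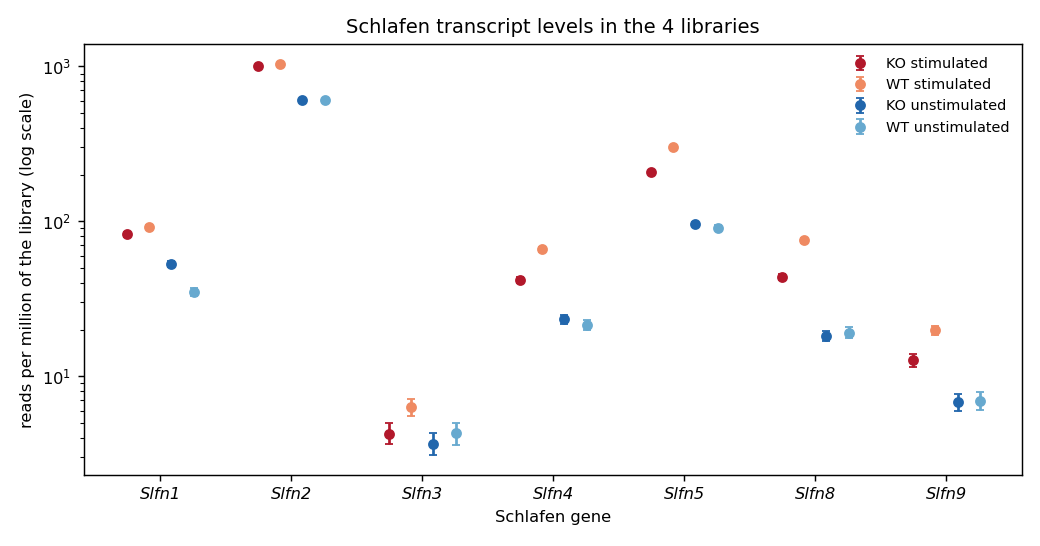
Level of each Schlafen gene in the 4 libraries, in CPM on a log scale; bars are 95% counting intervals. Slfn2 lies highest in all 4 libraries, and the KO points of Slfn4, Slfn5, Slfn8 and Slfn9 fall below WT in stimulated cells and beside WT in unstimulated cells.

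The levels also give the ratio of stimulated over unstimulated cells for the family in each genotype. With 1 library per group, an effect of IFN-gamma and LPS and a difference between cultures cannot be told apart in these ratios. These ratios use the same 4 libraries as the genotype ratios, so they are another view of the same reads and no second line of support. In the stimulated KO library 6 of 7 members were higher by 1.5-fold or more, where 4.54% of the 10911 genes rose that far and 6.85% fell that far. In WT cells 6 of 7 were higher as well, against 5.2% of genes higher and 6.56% lower. Slfn3 did not reach 1.5-fold in either genotype on this scale. With the median gene set to 0, its ratio in WT cells was 0.71 and passed 1.5-fold. The rise reached 2-fold for 2 members in KO cells and for 5 members in WT cells. The share of all genes rising 2-fold was not computed, so nothing is read from these counts. With the median gene set to 0, Slfn9 in KO cells, at 1.05, passed 2-fold as well. The median log2 ratio of stimulated over unstimulated cells was 0.85 for the members in KO cells and 1.51 in WT cells. For all 10911 genes it was −0.15 in both genotypes.

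Slfn8 and Slfn5, both long members, had the largest rises of the family in both genotypes. Slfn8 rose 2.40-fold in KO cells (43.9 CPM stimulated, 18.3 CPM unstimulated) and 3.94-fold in WT cells (75.3 CPM stimulated, 19.1 CPM unstimulated). Slfn5 rose 2.16-fold in KO cells and 3.30-fold in WT cells, where it reached 301 CPM stimulated, against 91.1 CPM unstimulated. Slfn9 rose 1.87-fold in KO cells and 2.86-fold in WT cells. In each of these genes the unstimulated levels of KO and WT were alike and the stimulated ones were not.

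Slfn4 rose 1.80-fold in KO cells and 3.08-fold in WT cells. Slfn1 rose 1.55-fold in KO cells and 2.63-fold in WT cells. The stimulated level of Slfn1 was 82.7 CPM in KO and 92.2 CPM in WT cells, so the smaller rise in KO cells came mainly with the higher unstimulated level of that library. Slfn2 rose by nearly the same factor in KO (1.66-fold) and WT cells (1.69-fold), and it is the member with the narrowest counting error. Slfn3 rose 1.16-fold in KO cells, within its counting error (0.22 ± 0.17 on the log2 scale), and 1.48-fold in WT cells.

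**Figure D3:**
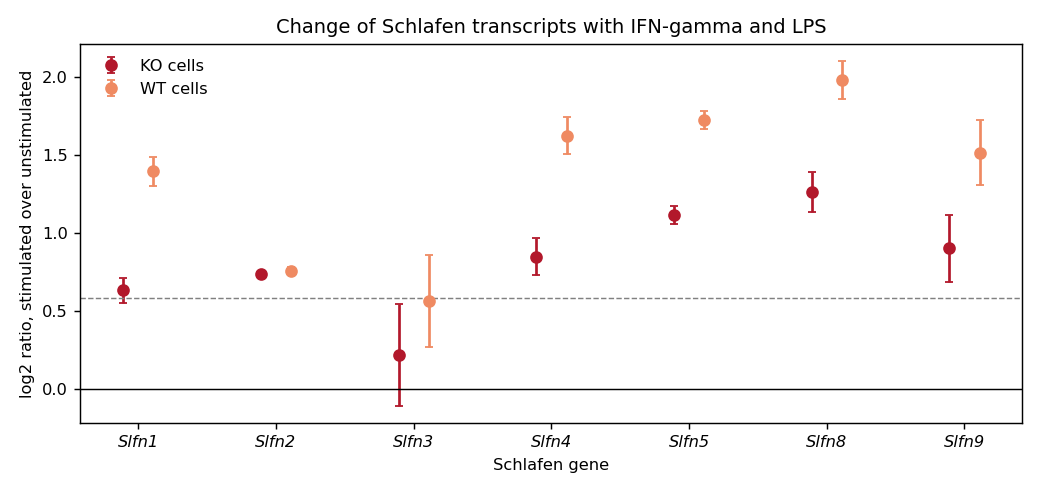
Log2 ratio of stimulated over unstimulated cells for each Schlafen gene in KO and WT cells; bars are 95% counting intervals and the dashed line marks 1.5-fold. KO points lie below WT points for Slfn1, Slfn4, Slfn5, Slfn8 and Slfn9 with bars that do not overlap, and the points of Slfn2 lie side by side. The bars cover the sampling of reads only, and the share of all genes with such bars was not computed.

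The genotype ratio of stimulated cells minus that of unstimulated cells was below 0 for all 7 members, and by 1.5-fold or more for 5 of them. Among the 10911 genes, which leave out capped genes, 49.3% had a difference below 0. A difference of 1.5-fold or more was seen downward for 1.04% and upward for 0.431% of them. The differences were −0.78 ± 0.085 for Slfn4, −0.76 ± 0.063 for Slfn1, −0.71 ± 0.090 for Slfn8, −0.61 ± 0.15 for Slfn9 and −0.61 ± 0.041 for Slfn5. Those of Slfn3 (−0.34 ± 0.22) and Slfn2 (−0.02 ± 0.017) had intervals that included 0. The median difference was −0.61 for the members and 0.0028 for all genes. With no residual degrees of freedom, this difference between states was not tested.

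Slfn1 and Slfn4 thus had differences of like size from unlike positions. For Slfn1 the KO library was high without stimulation and near WT with it. For Slfn4 it was near WT without stimulation and low with it. Among the 10911 genes, 54 were called higher in unstimulated cells, where 63 of all 15394 listed genes were. Of these, 2 were below 0 in stimulated cells, Slfn1 and Rhoh, which encodes a GTPase of blood cells. A difference at least as low as that of Slfn1 was seen for 3 of the 54, Slfn1 itself, Ctgf and Ms4a8a. Rhoh, Ctgf and Ms4a8a are named after their values were seen.

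**Figure D4:**
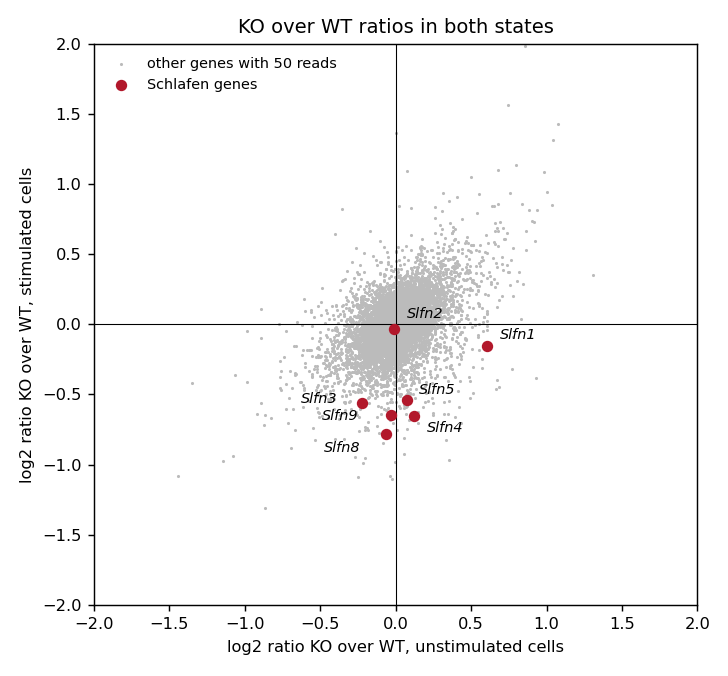
Log2 ratio of KO over WT in unstimulated cells (x axis) against stimulated cells (y axis) for 10911 genes with at least 50 reads in both tables. Capped genes are left out, and 4 genes lie outside the axes. Slfn2 sits in the centre of the cloud, Slfn3, Slfn4, Slfn5, Slfn8 and Slfn9 below it, and Slfn1 to its right.

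The 5 genes whose pair of ratios lay nearest to that of Slfn1, by the straight-line distance in the plane of both ratios over the 2 states, were Pole (0.061), E330020D12Rik (0.088), Fmo5 (0.094), Gm6904 (0.10) and Nmral1 (0.10). Pole encodes a catalytic subunit of DNA polymerase epsilon and Fmo5 a flavin monooxygenase. These genes had far fewer reads than Slfn1. Pole, the nearest, had 79 reads in stimulated KO, against 92 reads in stimulated WT cells, and 112 reads in unstimulated KO, against 67 reads in unstimulated WT cells. Its ratios were −0.18 ± 0.22 and 0.55 ± 0.22.

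Between genes, levels were compared as CPM per kilobase of annotated exon (GENCODE M21). Slfn2 led in each library, at 607 in stimulated KO, 621 in stimulated WT, 365 in unstimulated KO and 367 in unstimulated WT cells. It held 72.0% of the family's summed CPM in stimulated KO cells, against 64.9% in stimulated WT cells, and 75.1% in unstimulated KO, against 77.4% in unstimulated WT cells. Slfn1 and Slfn5 came next on this scale. In stimulated KO cells they were at 44.4 and 32.7, while in stimulated WT cells they stood at 49.5 and 47.5 with intervals that overlapped. In unstimulated cells Slfn1 was at 28.6 in KO, against 18.8 in WT cells, and Slfn5 at 15.1 in KO, against 14.4 in WT cells.

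Slfn4 and Slfn8 followed, with intervals that overlapped in stimulated KO cells (10.6 and 10.7) and in unstimulated WT cells (5.40 and 4.68). Slfn9 and Slfn3 were lowest in each library, between 1.07 and 3.32, and their intervals overlapped in both unstimulated libraries. The family's CPM summed to 1403 in stimulated KO, against 1593 in stimulated WT cells, and to 808 in unstimulated KO, against 789 in unstimulated WT cells. Without Slfn2 the sums were 393 in stimulated KO, against 560 in stimulated WT cells, and 201 in unstimulated KO, against 178 in unstimulated WT cells.

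Reads of related genes can be split or lost in counting. Of the 50-base words in the annotated transcripts, 15.6% of those of Slfn3, 14.6% of Slfn8, 11.5% of Slfn9 and 10.8% of Slfn4 also occur in a transcript of another gene. For Slfn2, Slfn5 and Slfn1 the shares were 4.3%, 3.4% and 0.6%. Slfn8 shares most with the pseudogene Slfn10-ps (10.1% of its words), as does Slfn9 (8.1%), and Slfn3 and Slfn4 share most with each other among family genes. Values of Slfn3, Slfn4, Slfn8 and Slfn9 are less certain for this, while Slfn1 has almost no shared words. The antisense gene Slfn5os overlaps 8.8% of the exon bases of Slfn5, and whether reads were counted by strand is not stated in the labels.

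Within the cluster, Slfn10-ps was the other gene listed in both tables. It had 718 reads in stimulated KO, against 952 reads in stimulated WT cells (−0.37 ± 0.071), and 814 reads in unstimulated KO, against 771 reads in unstimulated WT cells (−0.11 ± 0.073). It did not reach 1.5-fold with stimulation, at 0.949-fold in KO and 1.13-fold in WT cells, although it lies between Slfn8 and Slfn2, which both rose. Outside the cluster but within 300 kb of it, 12 genes had 50 reads in stimulated and 11 in unstimulated cells. Their median ratios were −0.01 in stimulated cells and close to 0 in unstimulated cells. The lowest stimulated ratio, −0.66 ± 0.28, was that of the protease gene Mmp28 with 42 reads in KO, against 68 reads in WT cells.

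**Figure D5:**
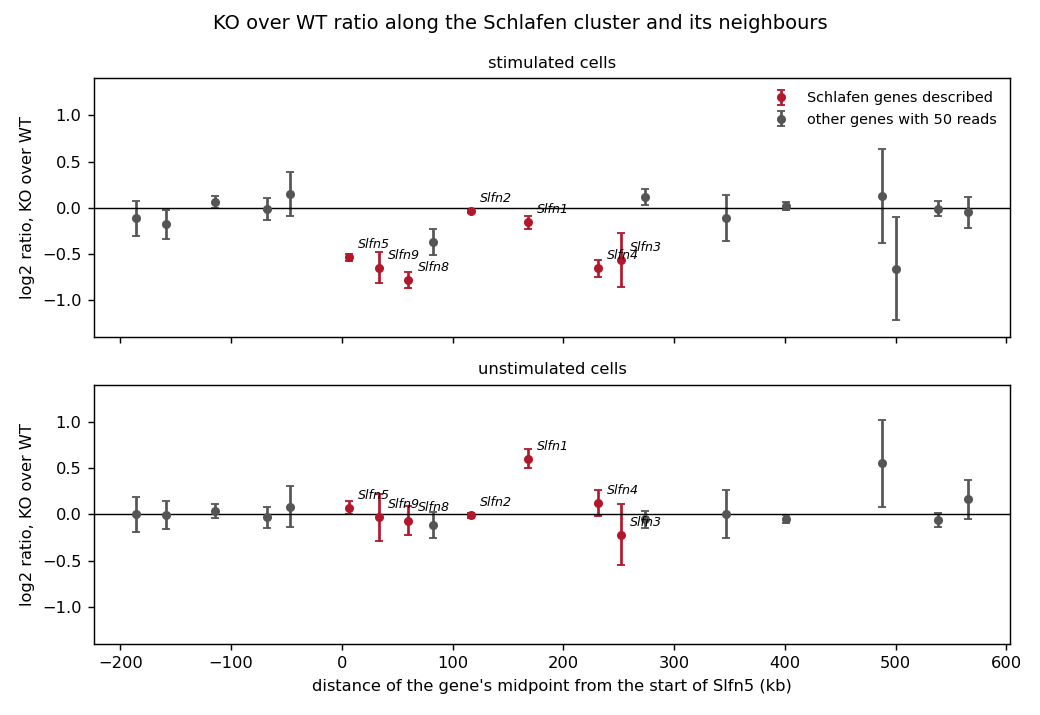
Log2 ratio of KO over WT along the cluster, by the distance of each gene's midpoint from the start of Slfn5 in kb, for genes with at least 50 reads in stimulated (top) and unstimulated cells (bottom); bars are 95% counting intervals. In stimulated cells the low ratios lie on both sides of Slfn2 and Slfn1, which are near 0, and flanking genes range from −0.66 to 0.15.

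The other genes of the interferon response were set beside the family. Of 25 listed interferon-stimulated effectors, 13 were called lower and 0 higher in stimulated cells, where 0.594% of all genes were called lower and 0.425% higher. The median ratio of the list was −0.60. In unstimulated cells 0 were called in either direction (median 0.04), against 0.409% of all genes higher and 0.299% lower. The lowest ratios in stimulated cells were those of Ifit2 (−1.17), Ifit3 (−1.14) and Cmpk2 (−1.07), whose p-values are capped, so that no reads are given. Mx2, an antiviral GTPase and the lowest with recovered reads, had 1623 reads in stimulated KO, against 3261 reads in stimulated WT cells (−0.97 ± 0.044), while Zbp1, a sensor of nucleic acids, had the highest ratio of the list (−0.29 ± 0.027). In unstimulated cells Mx2 (0.36 ± 0.10) and Rtp4 (−0.16 ± 0.059) marked the ends of the list. For 17 effectors with recovered reads in both tables, the median log2 ratio with stimulation was 0.99 in KO and 1.61 in WT cells. For the Schlafen members it was 0.85 in KO and 1.51 in WT cells. The other 8 effectors have capped p-values in stimulated cells and include Ifit2, Ifit3 and Cmpk2, the lowest of the list. The medians of effectors and members are therefore not like for like.

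Of 15 listed interferon receptors and signal carriers, 1 was called lower in stimulated cells, Usp18 (−0.81), an interferon-induced brake on the receptor. The highest ratio of that list was that of Ifnb1, which encodes interferon-beta, at 0.28 ± 0.34 with 39 reads in KO, against 33 reads in WT cells. In unstimulated cells 0 of 14 listed members were called, between Jak1 (−0.16 ± 0.021) and Irf7 (0.18 ± 0.014).

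Both dendritic cell and macrophage markers were present. Of 12 dendritic cell markers, all listed, 1 was called higher in each state and 0 lower. Their levels ran in stimulated cells from Dpp4, with 2.58 CPM in KO, against 1.99 CPM in WT cells, to the class II gene Cd74, with 3494 CPM in KO, against 3298 CPM in WT cells. Flt3, the receptor for a growth factor of dendritic cells, had 10.3 CPM in stimulated KO, against 9.41 CPM in stimulated WT cells. The dendritic cell marker called was Clec10a in both states (0.86 ± 0.15 in stimulated, 0.84 ± 0.12 in unstimulated cells). Macrophage and monocyte markers, of which Adgre1 was not listed, had 2 of 11 listed members called higher in stimulated and 3 of 11 in unstimulated cells, and 0 lower. They summed, without the capped gene Cd14, to 884 CPM in stimulated KO, against 868 CPM in stimulated WT cells, and to 1046 CPM in unstimulated KO, against 1070 CPM in unstimulated WT cells. Most of that was Csf1r, the receptor of the macrophage growth factor, with 407 CPM in stimulated KO, against 450 CPM in stimulated WT cells, and Cd68, with 349 CPM in stimulated KO, against 308 CPM in stimulated WT cells. The macrophage markers called higher in stimulated cells were C1qb, with a ratio of 0.94, and C1qc, with 0.65. In unstimulated cells they were C1qb (1.0), C1qc (0.74) and Fcgr1 (0.66). With 7.04 CPM in stimulated KO, against 3.66 CPM in stimulated WT cells, C1qb adds little to the sums. The counts of called markers stand beside 0.425% of all genes called higher in stimulated and 0.409% in unstimulated cells.

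Markers of lymphocytes had few reads. The T cell list (10 of 10 listed, 0 called in either state) summed to 9.11 CPM in stimulated KO, against 10.4 CPM in stimulated WT cells, and to 13.9 CPM in unstimulated KO, against 17.9 CPM in unstimulated WT cells. No listed T, NK or B cell marker was at 0 reads, and Ncr1 of the NK list was not listed. Cd3e had 9 reads in each stimulated library, and 15 reads in unstimulated KO, against 10 reads in unstimulated WT cells.

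The NK cell list (7 of 8 listed) summed to 18.4 CPM in stimulated KO, against 11.9 CPM in stimulated WT cells. In unstimulated cells it summed to 20.7 CPM in KO, against 14.1 CPM in WT cells. In each state 1 member was called higher, Gzmb (0.68 ± 0.15) in stimulated and Gzma (0.86 ± 0.16) in unstimulated cells. The B cell list (5 of 5 listed, 0 called) summed to 4.00 CPM in stimulated KO, against 1.96 CPM in stimulated WT cells, and to 5.26 CPM in unstimulated KO, against 3.06 CPM in unstimulated WT cells. Fibroblast markers were mixed, with 6 of 10 called higher and 1 lower in stimulated and 4 of 10 called higher in unstimulated cells. Of all genes 0.425% were called higher and 0.594% lower in stimulated and 0.409% higher in unstimulated cells. In stimulated cells those higher were Col1a1, Col1a2, Col3a1, Col5a2, Fn1 and Sparc. Pdgfrb was called lower (−0.74 ± 0.15), and Pdgfra (0.53 ± 0.46), Dcn (0.17 ± 0.10) and Lum (−0.55 ± 0.66) were not called. In unstimulated cells those higher were Col1a2, Col3a1, Col5a2 and Fn1. The sums of the 10 fibroblast markers were 87.7 CPM in stimulated KO, against 35.0 CPM in stimulated WT cells. In unstimulated cells they were 41.3 CPM in KO, against 24.4 CPM in WT cells. Of 10 neutrophil markers, 6 were listed in stimulated and 8 in unstimulated cells, Ly6g and Elane in neither, and 0 were called in either state. The listed ones summed to 351 CPM in stimulated KO, against 398 CPM in stimulated WT cells. In unstimulated cells they summed to 257 CPM in KO, against 321 CPM in WT cells. Most of the sum in stimulated cells was Lcn2, with 280 CPM in stimulated KO, against 330 CPM in stimulated WT cells. The part of these markers in the Schlafen ratios was not tested.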

How the data were processed

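The authors deposited 2 tables, KO over WT in stimulated and in unstimulated cells, with a log2 ratio and a −log10 p-value per gene, per the file headers; the p-values are capped at 150 and 100. FastQC 0.10.1, HTSeq 0.6.0 and mm10 are named in the submitters' processing notes; no source used here names the aligner, annotation, strand setting or test.

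The deposited log2 ratio is that of unscaled reads. A variance of this ratio that depends on the geometric mean of both reads alone, with a zero point at the ratio of both library totals (−0.036 stimulated, 0.1913 unstimulated), turned ratio and p into reads. Of values under 20 reads, 100% (2934 and 2904 genes) came within 0.1 of a whole number. Library totals followed from the same fit. Pairs of whole reads were recovered for 15260 and 15343 genes (99.7% in both tables), leaving out 50 and 51 capped genes, which keep their ratio. A library with 0 reads enters the deposited ratio as 0.5. Counting SEs and exact 95% binomial intervals were computed from the reads and cover counting error only; intervals of stimulation ratios and of differences between states are normal ones from these SEs. The recovery was also run on simulated data made with this same variance, which cannot show that the authors' test had this form. The planned rule allowed reads to be used where the whole-number check held.

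Design rule for named genes: all members, the ends and called genes of each list (at most 4), genes nearest to Slfn1 and neighbours of the cluster. The naming departed from this rule in the cell type lists, where the ends were not all named. Csf1r, Cd68, Flt3, Lcn2 and Cd3e were named there without being called. Not every neighbour of the cluster is named. The members and lists were chosen with earlier results of these data known. Stimulation ratios and their alternative scaling were added after seeing the data. Positions and exon lengths came from GENCODE M21 and promoters from RefSeq (GRCm38.p6). Python 3.11.15, numpy 2.4.6, scipy 1.17.1 and pandas 2.3.3 were used.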

Additional observations from a re-analysis of the deposited data

Results flagged for a closer look

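For 2 members the 95% counting intervals of the KO over WT ratio lay on opposite sides of 0 in the 2 states. The share of all genes with such a pair of intervals was not computed, so nothing is read from this count. These intervals cover the sampling of reads only. For Slfn1 the ratio in stimulated minus that in unstimulated cells was −0.76, from −0.16 in stimulated and 0.60 in unstimulated cells. For Slfn5 it was −0.61, from −0.54 in stimulated and 0.07 in unstimulated cells, where the interval began at 0.0039. The differences were not tested: every group is a single library. Slfn1 was chosen for its difference.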

How the results depend on the processing

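No paired analysis was possible because each group has 1 library, and no library could be left out. At a threshold of 2-fold, 0 Schlafen members were called in stimulated and 0 in unstimulated cells, in place of 3 and 1. At 2-fold, 3 interferon-stimulated effectors and 0 receptors and signal carriers were called in stimulated cells. At 1.2-fold the counts in stimulated cells were 4 Schlafen members, 25 effectors and 4 receptors and signal carriers. In unstimulated cells they were 1 Schlafen member, 2 effectors and 0 receptors and signal carriers. The shares of all genes called at 1.2-fold and at 2-fold were not computed, so nothing is read from these counts. With the ratios as deposited, the difference of Slfn1 between states was −0.99 in place of −0.76, since the deposited ratios carry the unlike library totals. Centring on the median gene, an adjusted p under 0.05 and keeping only genes of 50 reads left all counts of calls within 1.5 times. With the median gene set to 0, 10 of 14 stimulation ratios of the members moved by more than their counting interval, all upward by about 0.15; Slfn3 in WT cells (0.71) then passed 1.5-fold and Slfn9 in KO cells (1.05) passed 2-fold. Depth limits Slfn3 and Slfn9 most.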

Other observations

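Besides Slfn10-ps, 2 other Schlafen genes were looked up, and both had few reads. Slfnl1, a Schlafen-like gene on chromosome 4, was listed for unstimulated cells with 6 reads in KO and 0 reads in WT cells. Slfn14, which lies outside the cluster beyond Slfn3 and is known from platelets and red blood cells, had 1 read in each unstimulated library. Neither is listed for stimulated cells, and no ratio is given for them.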
